A study of Mus musculus with 30 samples.

Results

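Fn14, the receptor encoded by Tnfrsf12a, was examined with 9 genes that act beside it in TNF superfamily signaling in mouse gastrocnemius muscle. These were the TNF receptors Tnfrsf1a, Tnfrsf1b and Tnfrsf21, the Fn14 ligand TWEAK (Tnfsf12), the TRAF adaptors Traf2, Traf3 and Traf6, the adaptor Tradd and the kinase NIK (Map3k14). The 10 genes were chosen by symbol among the 56951 symbols of the deposited tables, each was found on 1 row, and all 10 passed the filter that left 12030 genes for testing (on average across the 30 mice, over 20 reads and over 0.5 FPKM).

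Gastrocnemius RNA, from muscle that included the plantaris, was sequenced from 14 LD mice and 16 ADV mice, 1 library per mouse. All were wild-type male C57BL/6J mice, housed singly with a running wheel and placed on their schedule at 14 weeks of age, after light-dark entrainment and a period of constant darkness that both groups shared. LD mice stayed for 64 weeks on a light-dark cycle that was never shifted, and ADV mice spent the same time on a cycle advanced by 8 hours every 4 days, which is a model of chronic jet lag. Tissue was taken over several hours of the light phase, when the light cycles of both groups were aligned, and the labels give no collection hour for each mouse and no batch. Read pairs on exons numbered 19015401 to 28512674 per LD mouse and 18875468 to 25699604 per ADV mouse.

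TNF superfamily receptors are membrane proteins that cluster when a ligand, usually a trimer, binds them. Those with a death domain, such as TNFR1 (Tnfrsf1a) and death receptor 6 (Tnfrsf21), recruit adaptors such as TRADD, whereas Fn14 and TNFR2 (Tnfrsf1b) have none and bind TRAF proteins directly, which lead to the canonical NF-κB pathway or, through release of NIK, to the noncanonical one. In skeletal muscle Fn14 is known as a receptor that is scarce in resting muscle and induced by injury, denervation and disuse, and TWEAK is known for promoting fiber atrophy through it.

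Tnfrsf12a was counted on the transcript ENSMUST00000024698.10, which has 4 exons and 977 exon bases on the minus strand at chr17:23894419-23896442 (GRCm39). Of the 10 genes, 2 passed the test between the groups, Tnfrsf12a in 1 direction and Tnfrsf21 in the other, and the 250 bases before their annotated starts (GENCODE vM39) are shown for that reason. The Tnfrsf12a promoter lies at chr17:23896464-23896713 on the minus strand and the Tnfrsf21 promoter at chr17:43327163-43327412 on the plus strand, and capitals mark matches to the 6-base GC box, read on either strand.
Tnfrsf12a: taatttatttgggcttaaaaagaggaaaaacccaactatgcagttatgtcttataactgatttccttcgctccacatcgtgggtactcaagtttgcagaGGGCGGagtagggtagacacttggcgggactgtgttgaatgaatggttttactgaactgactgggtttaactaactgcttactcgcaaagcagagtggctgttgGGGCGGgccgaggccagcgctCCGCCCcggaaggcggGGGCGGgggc
Tnfrsf21: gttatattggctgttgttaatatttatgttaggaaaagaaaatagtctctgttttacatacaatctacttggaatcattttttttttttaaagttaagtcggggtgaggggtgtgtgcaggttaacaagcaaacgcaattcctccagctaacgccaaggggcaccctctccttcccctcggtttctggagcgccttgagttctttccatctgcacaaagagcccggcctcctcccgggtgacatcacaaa

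The Tnfrsf12a promoter held 4 GC boxes (GGGCGG or its reverse complement), at 151 to 146, 47 to 42, 26 to 21 and 10 to 5 bases before the start. A GC box was present in 47.4% of the 12011 promoters of tested genes that could be read, and in 6 of the 10 described here. The AP-1 motif TGANTCA (in 4.47% of promoters), the E-box CACGTG (7.72%), the TEAD motif GGAATG (11.3%), the cyclic AMP response element core TGACG (23.4%) and the heat shock element GAANNTTC (5.17%) were not found in the Tnfrsf12a window, nor were the NF-κB motif (4.4%) or the CArG box (1.2%). The Tnfrsf21 window held no match to any of these 8 motifs. Both strands were searched, the motifs do not share a match in these windows, and an absent match says only that the letters are not there. GC content was 52% for the Tnfrsf12a promoter and 44.4% for that of Tnfrsf21, against a median of 56.4% over all promoters searched.

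Tnfrsf12a was higher in the ADV group. Its FPKM (the count scaled to exon length and library size) ranged from 11 to 49.1 in LD mice, with a median of 21.5, and from 19.6 to 102 in ADV mice, with a median of 56.1. All but 1 of the 16 ADV mice lay above the LD median and 10 lay above the highest LD mouse, while 5 of the 14 LD mice lay below the lowest ADV mouse, so the groups overlapped in part. The means were 24.4 ± 10.9 FPKM (SD, n = 14) and 58.1 ± 23.9 FPKM (SD, n = 16), a log2 fold change (log2FC) of 1.24 (standard error, SE, 0.22, FDR 0.00158 by edgeR's quasi-likelihood test with Benjamini-Hochberg adjustment over all 12030 genes). This 2.36-fold difference ranked 13th from the top among the 12030 log2FCs and 22nd by p. When a clock score (defined with the clock genes) was added as covariate, a fit in which 0 of the 12030 genes were called (1441 at an unadjusted p under 0.05), the log2FC was 1.15 (SE 0.35, FDR 0.206 by edgeR). That score differed between the groups, so score and schedule cannot be told apart in such a fit. In whole muscle, a larger share of cells that express a gene and more RNA per cell cannot be told apart.

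Of the 10 genes, 2 were called at an FDR under 0.05, 1 higher and 1 lower in ADV mice, where 10.9% of all genes tested were called (5.74% higher and 5.12% lower). The median log2FC of the 10 genes was 0.07, against 0.00 over all genes tested. Only Tnfrsf12a among the 10 also passed a fold change of 1.3, the limit that the study's methods set.

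**Figure D1:**
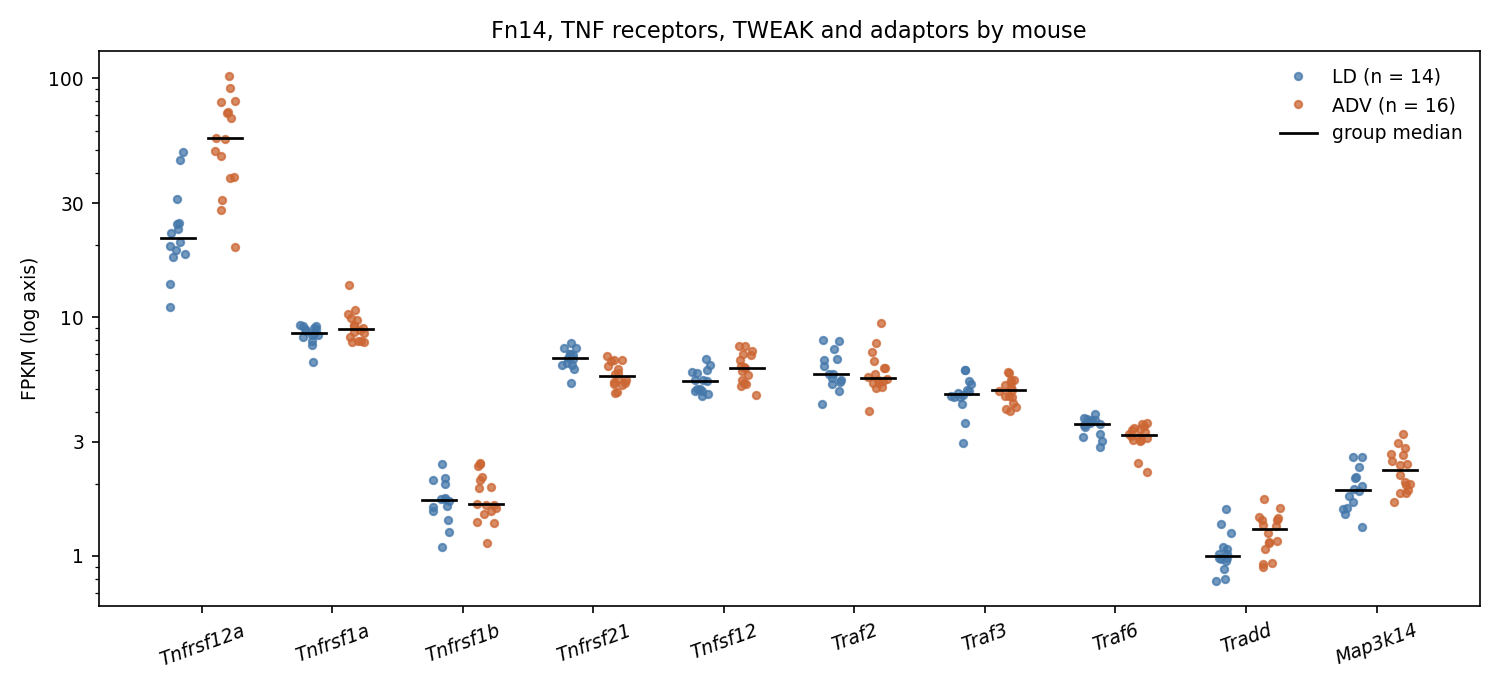
FPKM (log axis) of the 10 genes in each of the 14 LD mice (blue) and 16 ADV mice (orange), with a black line at each group's median. Tnfrsf12a, at the left, moved from a median of 21.5 to 56.1 FPKM with wide spread in both groups, whereas the other genes lay between 0.784 and 13.6 FPKM with medians close together.

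Tnfrsf21, which encodes death receptor 6, was the other called gene and was lower in the ADV group. It is a 6-exon gene at chr17:43327446-43400080 on the plus strand, on the same chromosome as Tnfrsf12a. Its FPKM ranged from 5.29 to 7.76 in LD mice, with a median of 6.76, and from 4.82 to 6.87 in ADV mice, with a median of 5.65. The ranges overlapped widely, yet 15 of the 16 ADV mice were below the LD median and 13 of the 14 LD mice were above the ADV median. The mean fell from 6.72 ± 0.633 to 5.77 ± 0.657 FPKM (SD), a log2FC of -0.24 (SE 0.06, FDR 0.00915 by edgeR), and -0.04 (SE 0.07, FDR 0.831 by edgeR) with the clock score as covariate.

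The TNF receptors proper did not pass the test. Tnfrsf1a (TNFR1, chr6:125326686-125339447) ranged from 6.51 to 9.28 FPKM in LD mice (median 8.62) and from 7.83 to 13.6 FPKM in ADV mice (median 8.91), with a log2FC of 0.10 (95% interval -0.01 to 0.21, FDR 0.242 by edgeR). Tnfrsf1b (TNFR2, chr4:144940033-144973440) ranged from 1.09 to 2.42 FPKM (median 1.72) and from 1.14 to 2.45 FPKM (median 1.64), with a log2FC of 0.04 (95% interval -0.17 to 0.25, FDR 0.837 by edgeR). The groups overlapped in most mice for both receptors, and the intervals leave room for differences of either sign.

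TWEAK, the ligand of Fn14, did not pass the test either. Tnfsf12 (chr11:69577076-69586675) ranged from 4.66 to 6.68 FPKM in LD mice, with a median of 5.41, and from 4.72 to 7.56 FPKM in ADV mice, with a median of 6.15. Of the 16 ADV mice, 12 exceeded the LD median, and the log2FC was 0.16 (SE 0.06, FDR 0.0804 by edgeR, unadjusted p = 0.0136). The paper reports Tnfsf12 as significantly higher in ADV mice, by a Wilcoxon rank-sum test on the FPKM of this gene. The FDR was under 0.05 in 2 of the 30 fits that each left out 1 library, 0.0375 without ADV mouse 31 being the lower of them, the other being without LD mouse 23. With each library's trend with GC content (the GC trend) removed, the log2FC of Tnfsf12 was 0.05 (edgeR FDR 0.611). In the annotation 57.9% of the exon bases of Tnfsf12 belong also to the read-through gene Tnfsfm13 on the same strand, so that reads could be shared between them, and Tnfsfm13 had a log2FC of 0.14 (edgeR FDR 0.108).

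The level of the receptor relative to its ligand was higher in ADV mice. The ratio of Tnfrsf12a to Tnfsf12 FPKM ran from 1.76 to 8.97 in LD mice, with a median of 3.85, and from 3.21 to 16.8 in ADV mice, with a median of 9.03. It was above the LD median in 15 of 16 ADV mice, and the mean log2 ratio differed by 1.06 (two-sided permutation test, 100000 permutations, p = 2.30e-04). The ratios of Tnfrsf12a to Tnfrsf1a, Traf2, Traf3 and Traf6 differed by 1.13 to 1.38 on the log2 scale, and 2.30e-04 was the largest of the 5 p-values and so also its own value after adjustment over the 5 ratios. All 5 ratios share Tnfrsf12a, and the genes it was divided by had log2FCs of only -0.16 to 0.16. The ratios therefore restate the Tnfrsf12a difference in the same mice and are not separate evidence.

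None of Traf2, Traf3, Traf6 and Tradd passed the test. TRAF2, which brings cIAP ubiquitin ligases to receptor tails, and TRAF3, which keeps NIK at a low level, had log2FCs near 0. Traf2 (chr2:25407994-25436952) ranged from 4.33 to 7.99 FPKM in LD mice (median 5.79) and from 4.06 to 9.41 FPKM in ADV mice (median 5.54), a log2FC of -0.04 (95% interval -0.23 to 0.14, FDR 0.793 by edgeR). Traf3 (chr12:111132897-111233582) ranged from 2.96 to 6.01 FPKM (median 4.74) and from 4.03 to 5.9 FPKM (median 4.93), a log2FC of 0.03 (95% interval -0.11 to 0.17, FDR 0.824 by edgeR). For both genes one group's range lay inside that of the other.

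Traf6 encodes a ubiquitin ligase that also serves interleukin-1 and Toll-like receptors, and it lay close to the threshold. On chr2:101508785-101532014, it ranged from 2.86 to 3.93 FPKM in LD mice (median 3.58) and from 2.24 to 3.59 FPKM in ADV mice (median 3.21). Of the 16 ADV mice, 15 were below the LD median, and the log2FC was -0.16 (SE 0.06) with an FDR of 0.0588 by edgeR and 0.0446 by DESeq2. Leaving out 1 library moved the edgeR FDR between 0.0324 and 0.097, with 6 of 30 fits under 0.05, those without LD mouse 21, 22 or 26 or without ADV mouse 21, 30 or 36. The log2FC of Traf6 was -0.11 (edgeR FDR 0.174) with the GC trend removed and -0.04 (edgeR FDR 0.854) with the clock score as covariate. TRADD, the death domain adaptor of TNFR1, was the least abundant of the 10 genes. Tradd (chr8:105984918-105991241) ranged from 0.784 to 1.57 FPKM in LD mice (median 0.998) and from 0.897 to 1.72 FPKM in ADV mice (median 1.29), a log2FC of 0.25 (SE 0.10, FDR 0.0862 by edgeR, and 0.0405 without LD mouse 32), on a mean of 48 reads per library. With the GC trend removed it was 0.16 (edgeR FDR 0.301).

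NIK, the kinase that starts the noncanonical NF-κB pathway, had the same fitted difference as Tradd. Map3k14 (chr11:103110588-103158298) ranged from 1.32 to 2.59 FPKM in LD mice (median 1.89) and from 1.69 to 3.23 FPKM in ADV mice (median 2.29). Of the ADV mice, 12 of 16 lay above the LD median and 5 above the highest LD mouse, and the log2FC was 0.25 (SE 0.10, FDR 0.0895 by edgeR). It was 0.15 (edgeR FDR 0.345) with the GC trend removed and 0.08 (edgeR FDR 0.846) with the clock score as covariate.

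Per exon length, Fn14 was the most abundant of the 10 transcripts in every mouse of both groups. It was followed by Tnfrsf1a, at a mean of 8.49 FPKM under LD and 9.22 FPKM under ADV, which exceeded the next gene in 13 of 14 LD mice and in all 16 ADV mice. Tnfrsf21, Traf2, Tnfsf12 and Traf3 followed at means of 6.72 to 4.77 FPKM in LD mice. Tnfrsf21 exceeded Traf2 in 10 of 14 LD mice, Traf2 exceeded Tnfsf12 in 10 and Tnfsf12 exceeded Traf3 in 9, so that these neighbors were not separated beyond their spread. In ADV mice Tnfsf12, Traf2 and Tnfrsf21 had means of 6.18, 5.97 and 5.77 FPKM, and Tnfsf12 exceeded Traf2 in 7 of 16 mice and Traf2 exceeded Tnfrsf21 in 9. Traf6, Map3k14, Tnfrsf1b and Tradd stood at the bottom of the order in both groups. Tnfrsf12a also varied most between mice of 1 group, with a coefficient of variation of 44.7% in LD mice and 41.1% in ADV mice. For the other 9 genes that coefficient was 8.71% to 20.5% in LD mice and 11.4% to 22.5% in ADV mice.

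Beyond the 10 genes, the rest of the pathway was read from 4 lists. Of 28 TNF receptor superfamily genes 15 were tested, and Tnfrsf12a and Tnfrsf25 rose, Tnfrsf21 fell and 12 did not pass, where 10.9% of all genes tested were called. The median log2FC of the 15 was 0.01. Tnfrsf25, a death domain receptor known from T cells, averaged 0.398 ± 0.23 FPKM under LD and 0.722 ± 0.326 FPKM under ADV, a log2FC of 0.79 (SE 0.24, FDR 0.0352 by edgeR) on a mean of only 23.4 reads. Its FDR was over 0.05 in 11 of the 30 fits that left out 1 library (ADV mice 24, 25, 32 and 33 and LD mice 27 to 32 and 35), with 0.0626 as the highest, and also with the GC trend removed, with a lower read filter, with the label number as a block and in the 28 libraries whose label numbers occur in both groups, without the block. The lymphotoxin receptor Ltbr, with a log2FC of 0.15, had an edgeR FDR of 0.0543. The summed FPKM of the 28 receptors, Tnfrsf12a included, had a median of 75.9 in LD mice and 115 in ADV mice.

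Of 18 TNF superfamily ligands 4 were tested and 0 passed edgeR's test, nor DESeq2 or limma (1 at an unadjusted p under 0.05), with a median log2FC of 0.04. Tnfsf12 was the most abundant of them. Over all 12030 genes tested, edgeR called 10.9% and 3615 had an unadjusted p under 0.05. Tnf itself averaged 1.7 reads per library and was not tested, so this depth could not show a difference in it, and 11 of the 18 ligands averaged less than 0.1 FPKM.

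Among 27 adaptors and ubiquitin enzymes close to the receptors, 25 were tested, Otulin rose, Birc3 fell and 23 did not pass, with a median log2FC of 0.03. The share called over all genes tested was 10.9%. Otulin, the enzyme that removes linear ubiquitin chains, went from 10.6 ± 1.99 to 14.1 ± 2.53 FPKM, a log2FC of 0.39 (SE 0.10, FDR 0.0107 by edgeR), and 14 of 16 ADV mice exceeded the LD median. Birc3 encodes cIAP2, a ubiquitin ligase held by TRAF2. It fell from 2.41 ± 0.173 to 2.1 ± 0.394 FPKM, a log2FC of -0.22 (SE 0.07, FDR 0.0331 by edgeR), and the call was lost in 6 of the 30 fits without 1 library (ADV mouse 25 or 34, LD mouse 27, 29, 30 or 35), where the FDR reached 0.0556, and also with limma on log2(FPKM + 1), with library size alone, with the GC trend removed, with the label number as a block and in the 28 libraries without the block. The most abundant tested gene of this list was Trafd1, at 19.2 FPKM under LD and 21.2 FPKM under ADV (edgeR FDR 0.0931).

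Among 17 kinases, kinase partners and transcription factors of the NF-κB pathways 16 were tested, and Tab2 fell while 15 did not pass, with a median log2FC of -0.01. Here too the share called over all genes tested was 10.9%. Tab2 links ubiquitin chains to the kinase TAK1 and was the most abundant of the list. It went from 38.7 ± 2.65 to 35.5 ± 2.02 FPKM, a log2FC of -0.14 (SE 0.04, FDR 0.028 by edgeR), and 15 of 16 ADV mice were below the LD median, with the call lost in the 28 libraries whose label numbers occur in both groups, with or without the block. The subunits encoded by Nfkb1, Nfkb2, Rela, Relb and Rel had log2FCs between -0.01 and 0.12 with FDRs of 0.0636 or more. By Wilcoxon rank-sum tests on the FPKM of each gene, the paper reports Rela, Nfkb1 and Nfkb2 as significantly higher in ADV mice.

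**Figure D2:**
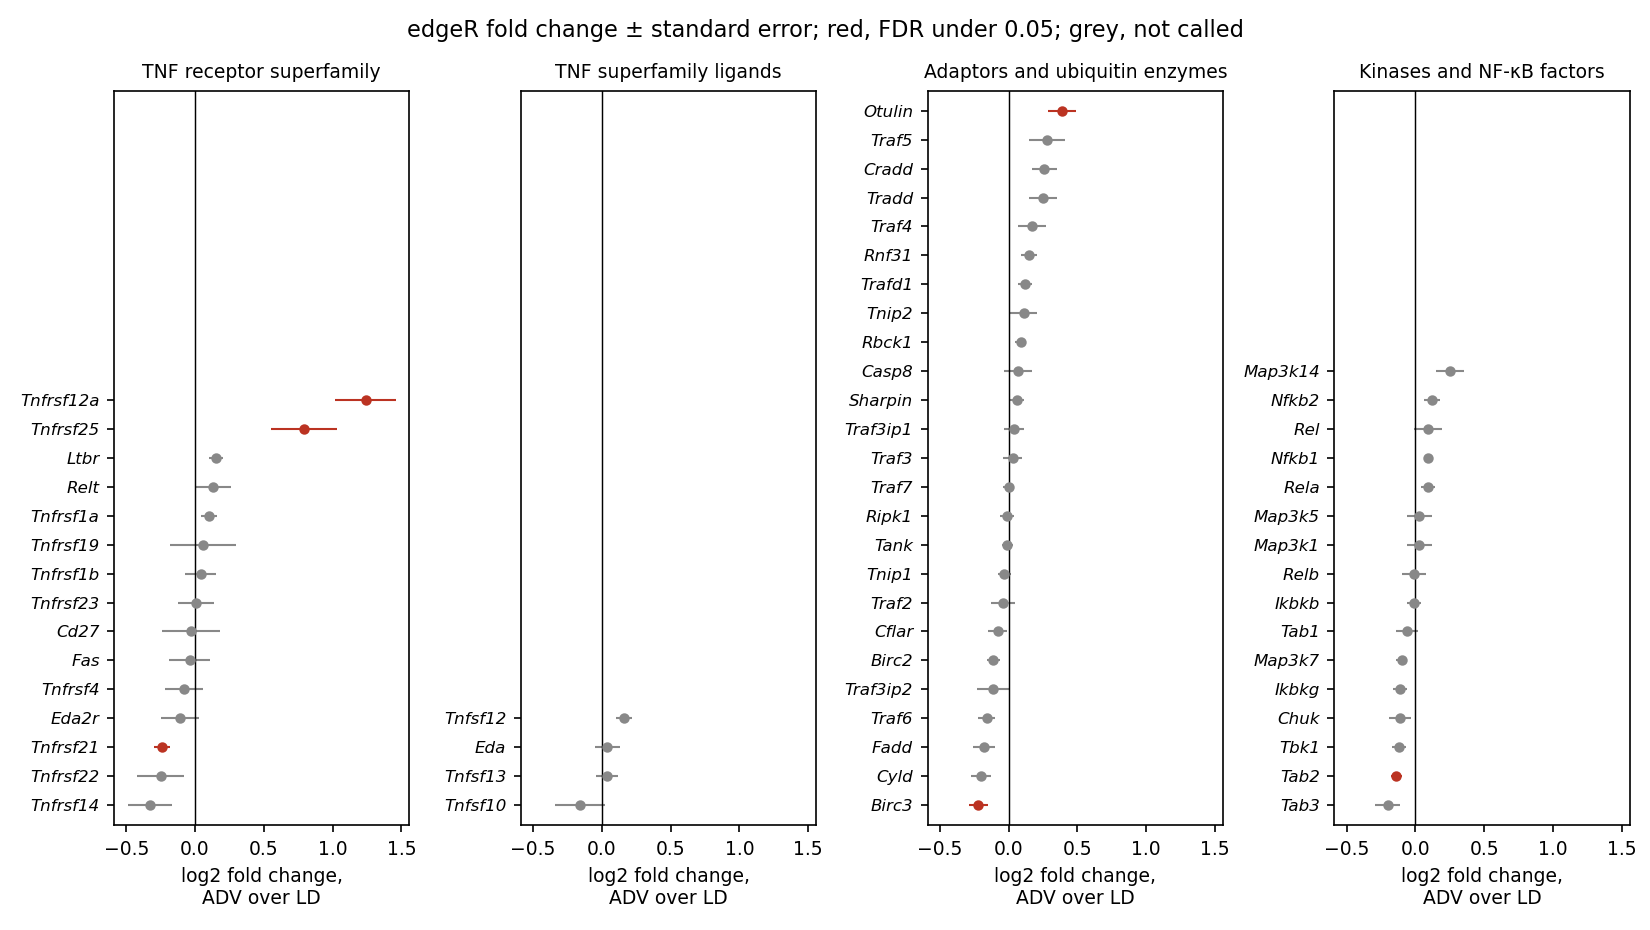
Log2 fold change (ADV over LD) with its SE for each tested gene of the receptor, ligand, adaptor and NF-κB lists, from edgeR with 14 LD and 16 ADV mice. Red marks the 6 genes with an FDR under 0.05, of which Tnfrsf12a at 1.24 and Tnfrsf25 at 0.79 stand apart and the rest lie between -0.24 and 0.39.

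Genes that TWEAK is known to raise or lower in muscle were read from a list of 18, of which 15 were tested. Myod1, a myogenic transcription factor, rose, Mmp9, a matrix protease, and Birc3 fell, and 12 did not pass, with a median log2FC of 0.09 and 12 of the 15 above 0. With limma 2 of the 15 were called on log2(FPKM + 0.1) and 1 on log2(FPKM + 1). By edgeR 10.9% of all genes tested were called, 5.74% higher and 5.12% lower. Myod1 went from 6.9 ± 2.22 to 11.6 ± 4.95 FPKM (log2FC 0.73, edgeR FDR 0.0147) and Mmp9 from 1.53 ± 0.633 to 1.06 ± 0.293 FPKM (log2FC -0.55, edgeR FDR 0.0348). As background, TWEAK is known to raise Mmp9 and Birc3 and to lower Myod1. Known directions were not compared for the other 12 tested genes, and the call of Birc3 was lost in 6 of the 30 fits without 1 library. The paper lists Myod1, Rela, Nfkb1, Nfkb2, Atf4 and Ddit3 among targets of the pathway. From their rise and that of Tnfsf12 and Tnfrsf12a, it proposes that the pathway was active. Its enrichment analysis had put TNFα signaling via NF-κB first among gene sets. Its p-values for Myod1, Tnfsf12, Tnfrsf12a and the NF-κB genes came from Wilcoxon rank-sum tests on FPKM, unlike the FDR over all genes used here. Whether TWEAK signaling differed between the groups was not tested here. Of 12 genes known to rise on loss of the nerve 8 were tested, and Myog rose while 7 did not pass (median log2FC 0.02). Myog went from 1.57 ± 0.35 to 2.66 ± 0.936 FPKM, a log2FC of 0.74 (edgeR FDR 0.00375).

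Within a group, where the schedule does not differ, Tnfrsf12a was compared with every other gene across mice. Values were log2 CPM (counts scaled to TMM-normalized library size), and p-values came from 100000 permutations of the mice, adjusted over the 12029 other genes in each group. By Spearman's rho 0 genes had an adjusted p under 0.05 in either group, with 663 genes in LD mice and 1082 in ADV mice at an unadjusted p under 0.05. By Pearson's r the counts with an adjusted p under 0.05 were 0 in LD mice and 17 in ADV mice. The smallest p that these permutations can give is 1.00e-05, so that a gene alone at that p has an adjusted p of 0.12.

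No relation of TWEAK to its receptor from mouse to mouse was detected. The rho of Tnfsf12 with Tnfrsf12a was -0.16 in LD mice (permutation p = 0.584, r = -0.22) and 0.18 in ADV mice (permutation p = 0.496, r = 0.21), and the adjusted p was 0.965 and 0.864. Without the 2 mice farthest from the median of Tnfrsf12a, which were LD mice 26 and 31 and ADV mice 22 and 23, r was -0.33 and 0.52. None of the other 8 genes had an adjusted p under 0.05 in either group.

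Traf3 had the highest rho of the 9 genes in LD mice, 0.72 (permutation p = 0.00454, adjusted p = 0.751), with r = 0.48 and r = 0.50 without the farthest 2 mice. In ADV mice its rho was 0.13 (permutation p = 0.626, adjusted p = 0.909). Map3k14 had the highest rho in ADV mice, 0.52 (permutation p = 0.043, adjusted p = 0.542), with r = 0.50 and r = 0.38 without the farthest 2 mice, and 0.24 in LD mice (permutation p = 0.418). Tnfrsf21, which moved opposite to Tnfrsf12a between the groups, had a rho of 0.48 with it in LD mice (permutation p = 0.0832, adjusted p = 0.942, r = 0.36, r = 0.51 without the farthest 2) and -0.43 in ADV mice (permutation p = 0.0966, adjusted p = 0.622, r = -0.44, r = -0.34 without them). Tnfrsf1a likewise had values of opposite sign, -0.26 in LD mice (permutation p = 0.373, r = -0.14, r = -0.34 without the farthest 2) and 0.47 in ADV mice (permutation p = 0.069, r = 0.51, r = 0.34 without them), with adjusted p of 0.95 and 0.591. Whether these values differ between the groups was not tested.

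**Figure D3:**
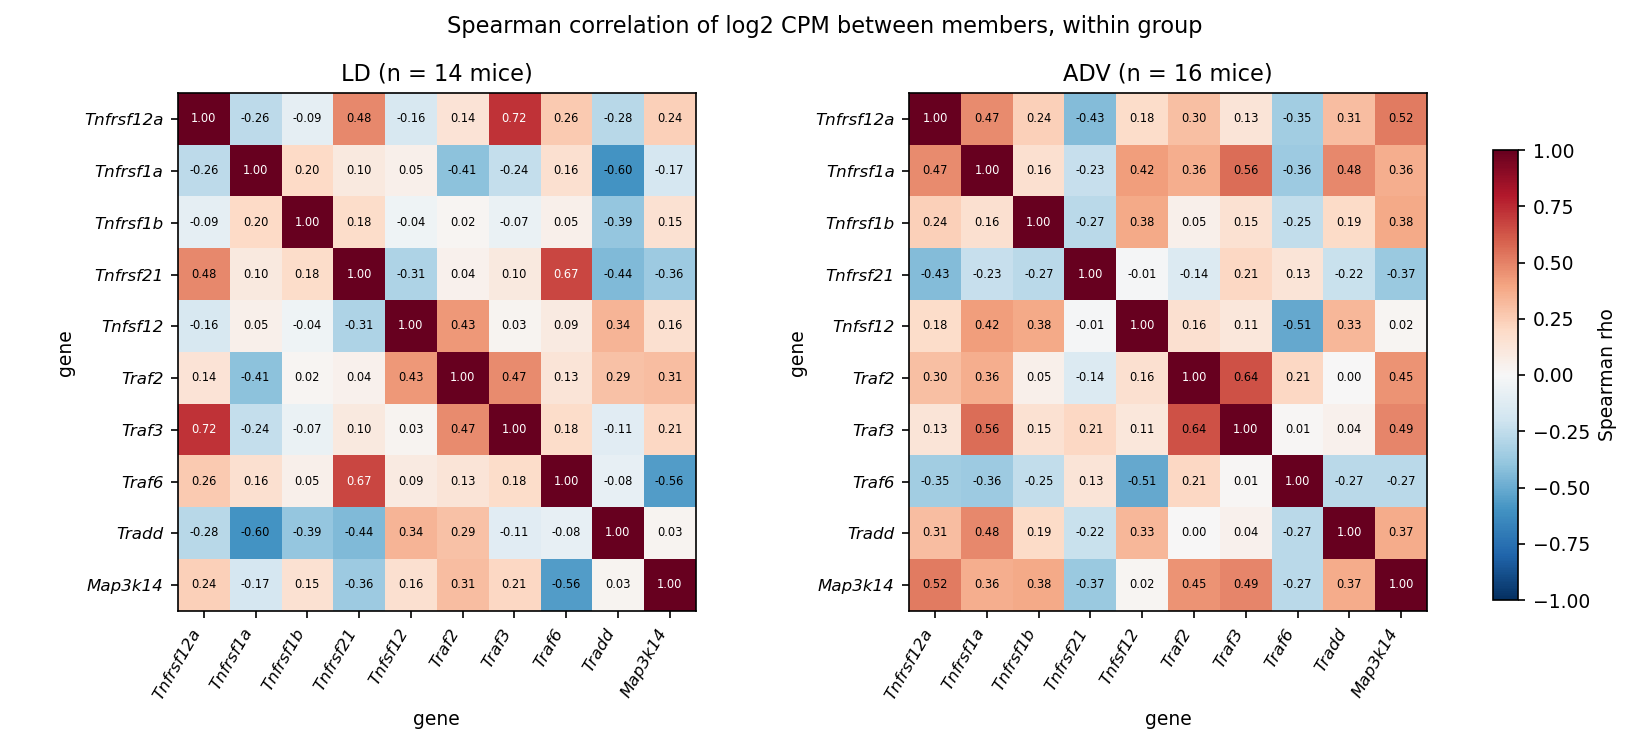
Spearman's rho of log2 CPM between each pair of the 10 genes, over 14 LD mice (left) and 16 ADV mice (right), on a color scale from -1 to 1. The first row of each panel holds the values with Tnfrsf12a, which run from -0.28 to 0.72 in LD mice and from -0.43 to 0.52 in ADV mice, with Traf3 at the top in LD mice and Map3k14 in ADV mice.

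Genes were then ordered by the lower of their rho values in the groups, so that a gene had to follow Tnfrsf12a in both. Of the 12029 genes, 62 (0.515%) had a rho over 0.5 in each group, and 35 of the 62 were called between the groups, all 35 higher in ADV mice, with a median log2FC of 0.19. Of all genes tested, 10.9% were called between the groups and 5.74% were called higher. The first 15 in this order included Hbegf, Rnf115, Flnc, Rcan1, Uck2, Usp28, Otulin, Xirp1, Zdhhc5, Smpdl3b, Zfp697, Stk40, Dnajb5 and Itga5. Of these 15, 10 were called higher in ADV mice and 5 were not called, with a median log2FC of 0.56. Because the order was made from the same mice, the rho values are a description, and no gene of the 15 had an adjusted p under 0.05 for rho in either group.

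Hbegf, a membrane-bound growth factor of the EGF family, came first. Its level ranged from 1.86 to 5.52 FPKM in LD mice (median 2.9) and from 2.17 to 11.2 FPKM in ADV mice (median 4.69), and it rose by a log2FC of 0.67 (SE 0.19, FDR 0.0244 by edgeR). With Tnfrsf12a its rho was 0.78 in LD mice (permutation p = 0.00155, adjusted p = 0.598) and 0.89 in ADV mice (permutation p = 3.00e-05, adjusted p = 0.0601). Pearson's r was 0.83 and 0.88, and in ADV mice its adjusted p was 0.0241. Without the farthest 2 mice r was 0.67 in LD mice and 0.84 in ADV mice, and rho was 0.64 and 0.86. The adjusted permutation p for rho without them was 0.81 in LD mice and 0.316 in ADV mice.

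Flnc, the filamin of muscle, rose from 129 ± 23.8 to 199 ± 65.2 FPKM (log2FC 0.61, edgeR FDR 0.0075), with a rho of 0.78 in LD mice and 0.71 in ADV mice. Xirp1, an actin-binding protein of strained or injured muscle, rose from 57.6 ± 29.8 to 154 ± 94.6 FPKM (log2FC 1.41, edgeR FDR 0.00275), with a rho of 0.67 and 0.76. Itga5, an integrin chain, had a log2FC of 0.56 (edgeR FDR 0.0119). Rcan1, an inhibitor of calcineurin, had a rho of 0.69 and 0.81 and rose by a log2FC of 1.28 (edgeR FDR 0.00249), and its Pearson correlation in ADV mice, 0.84, had an adjusted p of 0.0481. In LD mice, leaving out the 2 mice with the most Tnfrsf12a, 26 and 31, moved r from 0.83 to 0.74 for Flnc, from 0.77 to 0.49 for Rcan1, from 0.74 to 0.53 for Xirp1 and from 0.65 to 0.27 for Itga5.

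Otulin was the only gene of the 4 pathway lists among the 15, with a rho of 0.71 in LD mice (permutation p = 0.00635, adjusted p = 0.751) and 0.68 in ADV mice (permutation p = 0.00521, adjusted p = 0.362). Its r was 0.70 and 0.75, and 0.50 and 0.59 without the farthest 2 mice. Zdhhc5, a palmitoyltransferase, had a rho of 0.81 and 0.66 and was not called between the groups, with a log2FC of 0.01 (95% interval -0.07 to 0.09, FDR 0.894 by edgeR). Smpdl3b, Stk40 and Dnajb5 were not called either, with log2FCs of 0.06, 0.09 and 0.04.

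**Figure D4:**
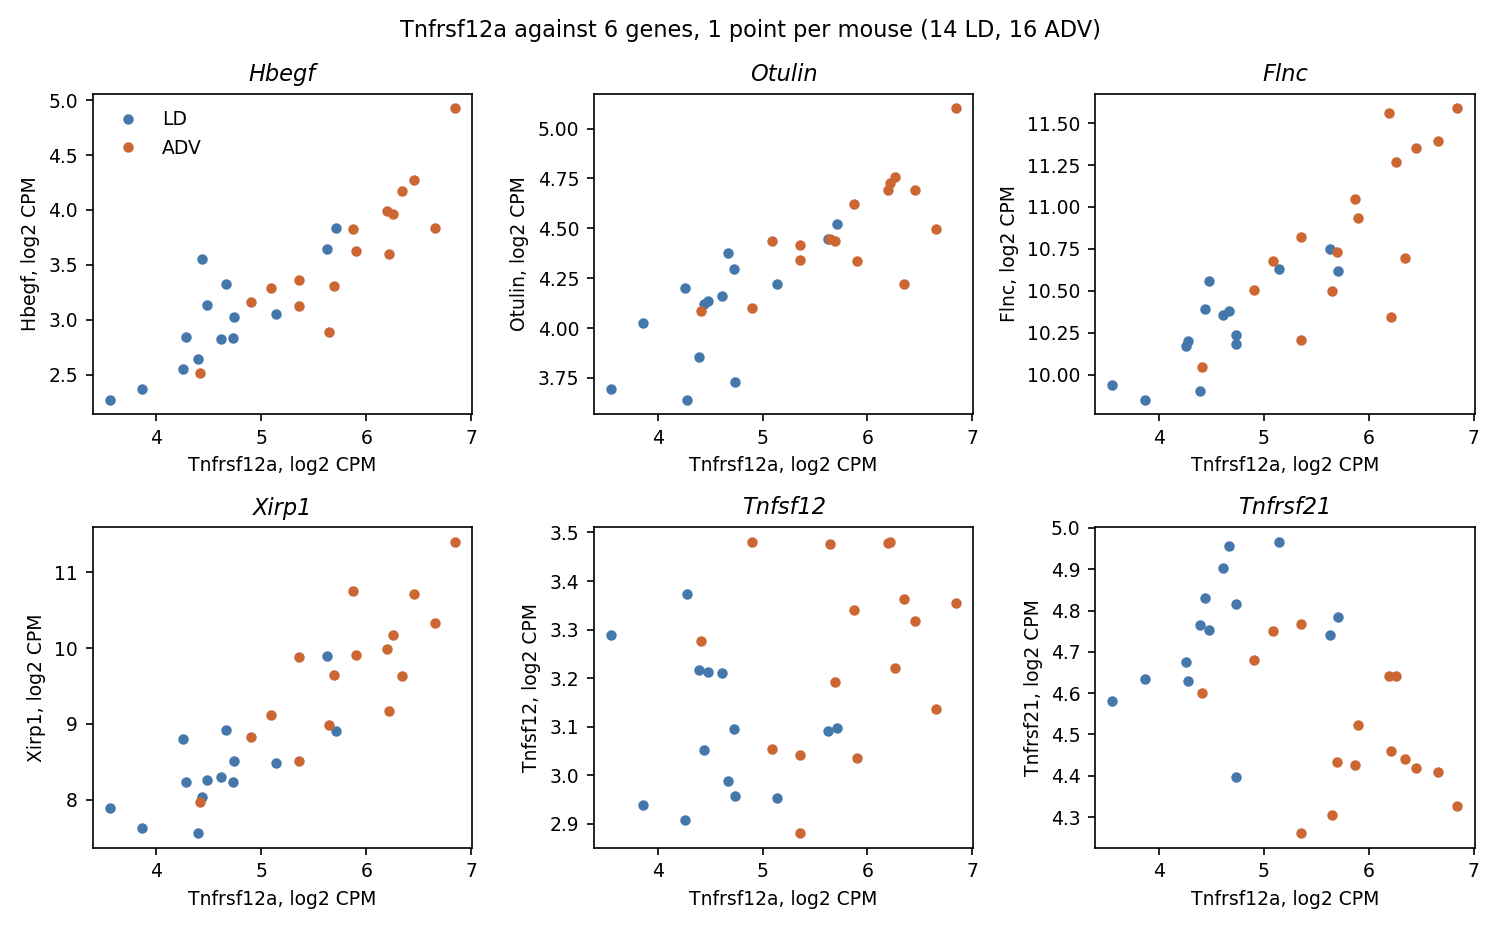
Log2 CPM of Tnfrsf12a (horizontal axis) against 6 genes (vertical axes), 1 point per mouse, LD in blue and ADV in orange. Hbegf, Otulin, Flnc and Xirp1 rise with Tnfrsf12a inside each group (rho of 0.67 to 0.89), Tnfsf12 has rho values of -0.16 and 0.18, and Tnfrsf21 has opposite signs in the groups (0.48 and -0.43).

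Some mice at the ends of the Tnfrsf12a range were also at the ends for several of these genes. ADV mouse 22, with the lowest Tnfrsf12a of its group (19.6 FPKM), was also the lowest ADV mouse for 12 of the 15 genes, and ADV mouse 25, with the highest (102 FPKM), was the highest for 6, with ADV mouse 24 the highest for 5. LD mice 31 and 26, with 49.1 and 45.6 FPKM of Tnfrsf12a, were the highest LD mice for 5 and 6 of the 15. At the low end of LD, mouse 21, the lowest for Tnfrsf12a, was the lowest for 4 and mouse 23 for 5. These counts follow in part from the choice of the 15 genes. Without ADV mouse 22 the log2FC of Tnfrsf12a kept an FDR of 6.56e-04 by edgeR, the lowest of the 30 fits that left out 1 library, and the fold changes of those fits ran from 1.15 without ADV mouse 25 to 1.35 without LD mouse 31.

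A check that did not reuse the same mice took the 10 genes with the highest rho in 1 group to the other. The 10 highest in ADV mice had rho values of 0.84 to 0.93 there and of -0.05 to 0.78 in LD mice, with a median of 0.27. Hbegf, at 0.78 in LD mice (permutation p = 0.00155, and 0.0155 adjusted over the 10 genes), was the only 1 of the 10 to pass. The 10 highest in LD mice had rho values of 0.81 to 0.92 there and of -0.44 to 0.66 in ADV mice, with a median of 0.28, and 0 passed the same adjustment, with 1 at an unadjusted p under 0.05 (Zdhhc5, permutation p = 0.00599, adjusted p = 0.0599).

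Immediate early genes and genes of the response to stretch were read as lists beside Tnfrsf12a. Over all genes tested, 5.74% were called higher and 5.12% lower. Of 18 immediate early genes tested, 11 rose and 0 fell (median log2FC 0.49), led by Atf3 (2.43, edgeR FDR 0.00341) and Fos (2.01, edgeR FDR 0.00687), both transcription factors. Their median rho with Tnfrsf12a was 0.26 in LD mice and 0.28 in ADV mice, where over all genes tested the median was -0.01 and 0.01. Of 16 stretch-responsive genes, which include Flnc and Xirp1, 11 rose and 0 fell (median log2FC 0.55). Their median rho was 0.09 in LD mice and 0.46 in ADV mice. Csrp3, the muscle LIM protein, rose from 101 ± 48.5 to 237 ± 102 FPKM (log2FC 1.22, edgeR FDR 0.00532).

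Markers of the cell types in the muscle were measured beside these results. Of all 12030 genes tested, edgeR called 10.9%, DESeq2 called 1673, and 3615 had an unadjusted p under 0.05 by edgeR. All 10 myofiber markers were tested and 0 passed edgeR's test, DESeq2 or limma (2 at an unadjusted p under 0.05), and their summed FPKM was 67489 to 87136 in LD mice and 68960 to 91522 in ADV mice, with Tnnt3 at 19628 and 19605 FPKM. Of 8 tested leukocyte markers 0 passed by edgeR or limma, 1 by DESeq2 and 3 at an unadjusted p under 0.05 (median log2FC -0.28, summed FPKM 66.5 to 167 in LD mice and 57 to 120 in ADV mice), with Cd3e under 0.1 FPKM and Lyz2 at 55.4 and 46.1 FPKM. Endothelial markers rose in 2 of 7 cases, Emcn (log2FC 0.27, edgeR FDR 0.00924) and Pecam1 (0.16, FDR 0.0331), and their summed FPKM was 56.8 to 76.5 in LD mice and 66.4 to 84.8 in ADV mice. The 7 endothelial log2FCs ran from -0.17 to 0.27, with a median of 0.16. Of 7 fibroblast markers Pdgfra fell (log2FC -0.24, edgeR FDR 0.0198), with sums of 326 to 416 and 276 to 452 FPKM and a median log2FC of -0.11. Sdc4 rose among 4 tested satellite cell markers (0.41, edgeR FDR 0.0455, sums 35.5 to 46.2 and 40.1 to 55.6 FPKM) and Fabp4 among 6 adipocyte markers (0.37, edgeR FDR 0.0228, sums 140 to 276 and 175 to 614 FPKM). The 4 satellite cell log2FCs ran from -0.09 to 0.41, with a median of 0.05. All 6 adipocyte markers had a log2FC above 0 (0.01 to 1.58, median 0.65), with 2 called by DESeq2 and 4 at an unadjusted p under 0.05. Of 5 tested Schwann cell markers 0 passed by edgeR or limma, 2 by DESeq2 and 4 at an unadjusted p under 0.05 (median log2FC 0.44, sums 24 to 45.9 and 26 to 80 FPKM), Pmp22 being the most abundant with an FDR of 0.0938. The part of these cells in the values of the 10 genes was not tested.

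Clock genes differed between the groups, with all 6 genes of the Dbp phase lower in ADV mice (Dbp -1.65, Ciart -1.86) and 3 of 5 genes of the Bmal1 phase higher (Nfil3 1.28, Bmal1 0.64, on the log2 scale). A score of clock phase, the mean z of the Bmal1 phase genes minus that of the Dbp phase genes, was -1.12 ± 1.21 (SD, n = 14) in LD mice and 0.981 ± 0.797 (SD, n = 16) in ADV mice. The clock genes were sorted into these lists as high or low in ADV mice, with earlier results of these data known. The directions above and the group difference in the score were therefore in part fixed in advance. With this score as a covariate edgeR called 0 of the 12030 genes, with 1441 at an unadjusted p under 0.05, so no call of the 10 genes held. Because the score itself differed between the groups, score and schedule cannot be told apart in this fit. Whether clock phase accounts for any of the lost calls was not tested.

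Inside the groups, the clock score had rho values near 0 with Tnfrsf12a, -0.04 in LD mice (permutation p = 0.892, r = -0.02) and 0.06 in ADV mice (permutation p = 0.814, r = 0.07). Both had an adjusted p of 0.939 over 8 relations with library measures. Without the 2 mice whose clock score lay farthest from the group's median score, r was -0.06 in LD mice and 0.01 in ADV mice. Those mice were chosen by the score and not by Tnfrsf12a. The slope of Tnfrsf12a per unit of score was 0.02 (SE 0.13) in LD mice and 0.09 (SE 0.22) in ADV mice on the log2 scale. The slope of Tnfrsf21 was -0.08 in LD mice (SE 0.03, p = 0.0135) and -0.12 in ADV mice (SE 0.04, p = 0.0158), and neither passed adjustment over all genes (edgeR FDR 0.156 and 0.998). Map3k14 had a slope of 0.16 in LD mice (edgeR p = 0.00399, FDR 0.0914) and -0.04 in ADV mice. Traf6 had -0.08 in LD mice (edgeR p = 0.0133, FDR 0.154) and -0.02 in ADV mice. Traf3 had 0.06 in LD mice and -0.10 in ADV mice (edgeR p = 0.0485, FDR 0.998). The same fits called 190 genes (1.58%) in LD mice and 1 in ADV mice. At an unadjusted p under 0.05 they had 2056 of 12030 genes in LD mice and 504 in ADV mice.

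The other 6 relations concerned GC content, exon share and depth. The slope of a library's log2 CPM on GC content was -0.066 ± 0.0631 in LD mice and 0.0578 ± 0.116 in ADV mice per 10 percentage points. In ADV mice Tnfrsf12a had a rho of 0.51 with this slope (permutation p = 0.048, adjusted p = 0.384, r = 0.48). Without the 2 ADV mice whose GC slope lay farthest from the group's median slope, r was 0.31. With the GC trend removed the log2FC of Tnfrsf12a was 1.13 (edgeR FDR 0.00379). Hcfc1r1, whose annotation in GENCODE vM39 reaches across Tnfrsf12a on the other strand, was counted on a row that ends 217 bases short of it. It had a log2FC of 0.15 (edgeR FDR 0.0627). Its rho with Tnfrsf12a was 0.38 in LD mice and 0.48 in ADV mice (permutation p = 0.184 and 0.0643, adjusted p = 0.942 and 0.586), with r = 0.41 and 0.52. Without the 2 mice farthest from the median of Tnfrsf12a, r was 0.61 in LD mice and 0.33 in ADV mice.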

How the data were processed

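Poly(A)-enriched stranded RNA of 30 gastrocnemius samples was sequenced in paired-end reads. Per the methods, the authors used Trimmomatic for adaptors, STAR for mapping to GRCm39 (2.7.10a in the submitters' processing notes), a mapping quality minimum of 10, and HOMER (4.11) for counting on the exons of 57186 UCSC canonical transcripts. The deposited raw counts are estimated counts, since each mate adds 0.5 read: 14.8% were not whole and were rounded here. The authors also deposited FPKM of the same rows. Whether the counting used strand is not given in the sources used here. The longest expressed row of each symbol was kept, and testing required means above 20 reads and 0.5 FPKM.

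The main test was edgeR 4.0.16 (TMM, quasi-likelihood F test, Benjamini-Hochberg adjustment over 12030 genes; FDR) in R 4.3.3. Standard errors are the log2 fold change (log2FC) divided by the root of F. Alternatives were DESeq2 1.42.0 (the authors' tool), limma 3.58.1 on log2(FPKM + 0.1) and log2(FPKM + 1), other size factors and filters, counts summed over a symbol's rows, the label number as a block, the clock score as covariate, a GC offset (spline with 4 degrees of freedom) and leaving out each library. The fit of 28 libraries without the block and the slopes on the clock score within groups were added after seeing the data. Correlations used log2 CPM with a prior count of 1 and 100000 permutations (scipy 1.17.1). The edgeR test and the correlation step were tested on simulated data. Counting error limits genes with few reads. The closest libraries of each group had a chi-square per degree of freedom of 10.6, so none were counted as duplicates.

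The members and lists were chosen with earlier results of these data known. Genes named were the 10 members, the called and most abundant genes of the 4 pathway lists, the most changed or most abundant genes of the other lists, genes overlapping a member, the 15 highest and 5 lowest in both groups by rho with Tnfrsf12a and the 10 highest in each group. A gene of the 15 and a leukocyte marker are not reported here by name. Ltbr, the NF-κB subunits and Tnf were added after their values were seen.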

Additional observations from a re-analysis of the deposited data

How the results depend on the processing

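With the clock score as covariate, the log2FC of Tnfrsf12a was 1.15 (FDR 0.206) and that of Tnfrsf21 was -0.04 (FDR 0.831), and 0 members, 0 receptors, 0 adaptors and 0 kinases were called. Score and schedule cannot be told apart in that fit. The adaptors called, 2 in the main test, were 1 with limma on log2(FPKM + 1), with library size alone, with the GC trend removed, with the label number as a replicate block and in the 28 libraries without the block. The kinases called, 1 in the main test, were 2 with limma at either pseudocount and with the filter at a mean over 100 reads and FPKM over 1, and 0 with the block or in the 28 libraries without it. The correlates of Tnfrsf12a in ADV mice with an adjusted p under 0.05 by rho were 14 with the clock score regressed out, against 0, and included Hbegf (0.92) and Xirp1 (0.89).

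Among fold changes that passed no test, Tnfrsf1b was at -0.01 and Traf2 at 0.00 both with the replicate block and in the same 28 libraries without it, and Traf3 was at -0.02 with the GC trend removed. Leaving out 1 library gave -0.00 to 0.09 for Tnfrsf1b, -0.01 to 0.06 for Traf3, 0 to 1 called ligand (1 without ADV mouse 31 or LD mouse 23), 1 to 4 called adaptors (4 without ADV mouse 30 or LD mouse 22) and 1 to 2 called kinases. The cause of these changes was not tested.

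Pairing by label number was not detected: the deviations of 14 same-numbered pairs correlated at -0.26 to 0.43, 6 of them over 0.1, and 3 mice correlated best with their own number. Over all genes 491 were called with the block, 613 in those 28 libraries without it and 1306 in the main test, against 1673 by DESeq2, 986 of 20191 with a mean over 1 read alone and 603 with the GC trend removed. With the block Tnfrsf12a had a log2FC of 1.12 (edgeR FDR 0.0089) and Tnfrsf21 of -0.24 (edgeR FDR 0.0421).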

Other observations

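Some genes ran against Tnfrsf12a inside both groups. The 5 with the lowest upper value of rho were Csgalnact1, Snx14, Lrp4, Asb18 and Cnst, with rho values of -0.60 to -0.66 in LD mice and -0.59 to -0.68 in ADV mice, none with an adjusted p under 0.05. Lrp4, the agrin receptor of the neuromuscular junction, had a rho of -0.60 in LD mice (permutation p = 0.0263, r = -0.64, r = -0.59 without the farthest 2 mice) and -0.63 in ADV mice (permutation p = 0.0106, r = -0.58, r = -0.48 without them), with adjusted p of 0.865 and 0.413. Its level was 1.79 ± 0.435 FPKM under LD and 1.64 ± 0.411 FPKM under ADV (log2FC -0.14, edgeR FDR 0.396). Of the 5, Cnst alone passed the test between the groups, with 13 FPKM under LD and 11.3 FPKM under ADV (log2FC -0.21, edgeR FDR 0.026).

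The 10 genes with the highest rho in ADV mice alone were Urgcp, Tpra1, Hbegf, Ppme1, Ppp1r27, Slc66a2, Psmd11, Capn15, Hspa5 and Tpt1-ps5. Urgcp led them with 0.93 in ADV mice and 0.33 in LD mice (permutation p = 0.246 in LD mice). Those highest in LD mice alone were Ccdc136, Clic5, Rack1, Usp47, Rpl9, Psph, Rnf220, Heca, Galnt2 and Zdhhc5. Heca had a rho of 0.83 in LD mice and -0.44 in ADV mice (permutation p = 0.0865 in ADV mice), and whether these values differ between the groups was not tested.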
